A study of Mus musculus with 2 samples.

Results

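The genes listed here act in threonine breakdown, in the making and use of serine and glycine, and in the transfer of single carbon units in mouse embryonic stem (ES) cells. They were chosen by name, as every probe set of the array that names exactly 1 of 10 listed genes. Of these 10 genes, 6 were measured, on 12 probe sets, out of 16563 genes measured in all: Phgdh, Psat1, Psph, Shmt1, Shmt2 and Gldc. Mthfd2 was named only on 2 probe sets that name 2 genes each, and Tdh, Mat2a and Amd1 were named by 0 probe sets, so these 4 genes were not analysed here; threonine breakdown by Tdh is among what was not measured.

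ES cells grown without feeder cells in serum and leukaemia inhibitory factor were compared after infection with either of 2 retroviruses. The control culture carried a hairpin with a control sequence, and the knockdown culture carried a hairpin against the histone variant H2A.B, expressed from the U6 promoter of a vector with a neomycin-resistance gene. The knockdown culture is labelled #1 and is the only knockdown culture here. Both cultures were kept under G418 for 2 to 4 weeks, and 2 µg of total RNA from each was hybridised to an Affymetrix array. Each group had 1 array, with no replicate, so the differences below describe these 2 arrays, carry no test and no replicate error, and the number of arrays limits their precision.

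Serine is made from the glycolytic intermediate 3-phosphoglycerate by Phgdh, Psat1 and Psph in turn. The hydroxymethyltransferases Shmt1, in the cytosol, and Shmt2, in mitochondria, then split serine into glycine and a carbon unit carried on folate, and the glycine cleavage system, which contains Gldc, draws a further unit from glycine. These units feed purine and thymidylate synthesis and the remaking of methionine, from which the methyl donor S-adenosylmethionine is formed. Mouse ES cells are known for breaking down threonine through Tdh as a further source of glycine and carbon units.

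The values are log2 intensities, so a difference of 1 is a change of 2-fold. In the deposited table, the differences between the arrays were not equally wide throughout. Over its first 18184 rows, called the first section here, probe sets past the expression filter (a mean log2 intensity of at least 6.73) had absolute differences with a median of 0.047. That median was 0.15 over the next 15458 rows, the middle section, where some control values repeat others, and 0.16 over the remaining 11476 rows, the last section. Of the 12 probe sets, 9 belonged to the first section, 2 to the last and 1 to the middle one, and 0 held a value that had to be left out. The ES cell label was checked against markers. Of 10 listed ES cell markers 9 were measured, all 9 passed the filter, and their log2 intensities ran from 10.14 to 14.24 in control cells and from 10.12 to 14.22 in knockdown cells. The filter was passed by 3 of 8 fibroblast, 0 of 7 primitive endoderm, 1 of 6 trophectoderm, 0 of 5 mesoderm and 2 of 5 neural markers, and 0 of those that passed differed by 2-fold. The neural marker Pax6, named after its values were seen, passed with 9.66 and 8.88; its difference of -0.78 lies beyond -0.19, the 5th percentile of differences in its section, the first, and its part in the results was not tested. The mesoderm marker Tbx6, also named after its values were seen, was below the filter, with a mean of 5.82. Its difference of -1.65, in the last section, was beyond 2-fold, and its part in the results was not tested. The knockdown could not be checked, since 0 probe sets named an H2A.B gene. Of the control genes, Gapdh had a difference of -0.024 and Actb gave none that could be used.

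None of the 6 measured genes differed by 2-fold between the arrays on any of its probe sets. Of all 8282 genes past the filter, 1.96% differed by at least 2-fold in either direction, so a count of 0 of 6 is near the background. At 1.5-fold the count was also 0 of 6, beside 5.64% of all genes past the filter. With each gene read from its probe set of highest mean intensity, all 6 passed the filter, 3 were higher and 3 lower on the knockdown array, and the median difference was 0.021, against -0.0016 over all genes past the filter. That median was -0.015 without Shmt2 and -0.041 over the 5 genes read from the first section described above, so its sign was not the same under these choices. The direction counted for Shmt2 also depends on the probe set chosen. The one used, with a mean of 7.34 against 7.24 for the next, ranked first only through its knockdown value. In control cells the next was brighter, at 7.33 against 7.15, and it was lower on the knockdown array by 0.17. The largest difference on any probe set was 1.30-fold. These are bulk cultures, in which less RNA per cell and fewer cells that express a gene cannot be told apart.

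The letters upstream of Phgdh, Shmt1 and Shmt2, the 3 genes with more than 1 probe set, are shown as context. These letters do not bear on whether the probe sets of a gene differ alike. They come from RefSeq's GRCm38.p6 assembly and are the 250 bases before each transcription start, 5′ to 3′ on the gene's own strand, which is the minus strand in each case. Capitals mark CCAAT boxes (CCAAT), GC boxes (GGGCGG) and the palindromic half-site of the respiratory-gene factor NRF1 (TGCGCA), all searched on both strands, so that a CCAAT or GC box of the other strand reads ATTGG or CCGCCC.
Phgdh, chr3:98339970-98340219: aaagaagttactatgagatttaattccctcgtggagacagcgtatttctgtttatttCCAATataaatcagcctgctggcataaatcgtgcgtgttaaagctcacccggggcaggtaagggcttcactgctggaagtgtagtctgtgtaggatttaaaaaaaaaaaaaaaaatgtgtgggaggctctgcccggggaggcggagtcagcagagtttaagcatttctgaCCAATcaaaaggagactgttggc
Shmt1, chr11:60811266-60811515: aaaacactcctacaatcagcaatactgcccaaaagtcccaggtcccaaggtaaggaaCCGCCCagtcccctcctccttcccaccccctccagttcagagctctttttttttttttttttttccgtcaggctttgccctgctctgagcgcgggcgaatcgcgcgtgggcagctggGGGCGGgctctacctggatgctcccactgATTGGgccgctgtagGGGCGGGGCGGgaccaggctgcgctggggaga
Shmt2, chr10:127522445-127522694: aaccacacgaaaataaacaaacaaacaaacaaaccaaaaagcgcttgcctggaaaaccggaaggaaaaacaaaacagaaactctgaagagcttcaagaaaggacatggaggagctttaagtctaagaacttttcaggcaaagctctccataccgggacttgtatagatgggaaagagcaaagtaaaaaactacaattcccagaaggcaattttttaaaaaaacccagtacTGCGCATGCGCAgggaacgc

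The upstream sequences of the 2 hydroxymethyltransferase genes shared none of these motifs. Shmt1 had 1 CCAAT box and 4 GC boxes, 2 of them overlapping by a base, whereas Shmt2 had neither and carried 2 NRF1 half-sites back to back, from 20 to 9 bases before its start. Phgdh had 2 CCAAT boxes, the nearer from 23 to 19 bases before the start, and no GC box. Over all 32851 promoter windows of this length, 33.8% held a CCAAT box, 32.7% a GC box and 6.43% an NRF1 half-site, which Shmt2 alone of the listed genes with a window held. Windows were found for 9 of the 10 listed genes, and 7 of the 9 genes held a CCAAT box in at least 1 window. This count is by gene, over 10 windows, whereas the 33.8% is by window. The element TGATGNAA, which C/EBP and ATF factors bind in genes of the amino acid response, was in 0 of the 9 and in 3.45% of all windows. A match of letters shows no binding, and the arrays did not measure these sequences.

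Serine synthesis was represented by all 3 of its enzymes. Phgdh, which oxidises 3-phosphoglycerate and commits it to serine, was lower on the knockdown array on both of its probe sets. The first had a log2 intensity of 7.76 in control cells and 7.55 in knockdown cells, a difference of -0.21 or 1.15-fold. The second had 6.89 and 6.71, a difference of -0.19. The probe sets thus differed by nearly the same amount, 0.022 apart. Both were designed from 1 transcript record and both carry a suffix that marks probes shared with other transcripts, so they are not independent readings. In the first section, 8.51% of probe sets past the filter differed by at least as much as the first and 9.82% by at least as much as the second.

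The other enzymes of serine synthesis each had 1 probe set. Psat1, the aminotransferase that makes phosphoserine, had 11.82 in control cells and 11.97 in knockdown cells. This difference of 0.14 was among the ordinary ones of its section, the last, where 54.1% of probe sets past the filter differed by at least as much. Psph, the phosphatase that releases serine, had 8.98 and 8.94, a difference of -0.041, which 54.5% of probe sets past the filter in the first section reached. The 3 enzymes of this short pathway did not share a direction: Phgdh and Psph were lower and Psat1 higher on the knockdown array.

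**Figure D1:**
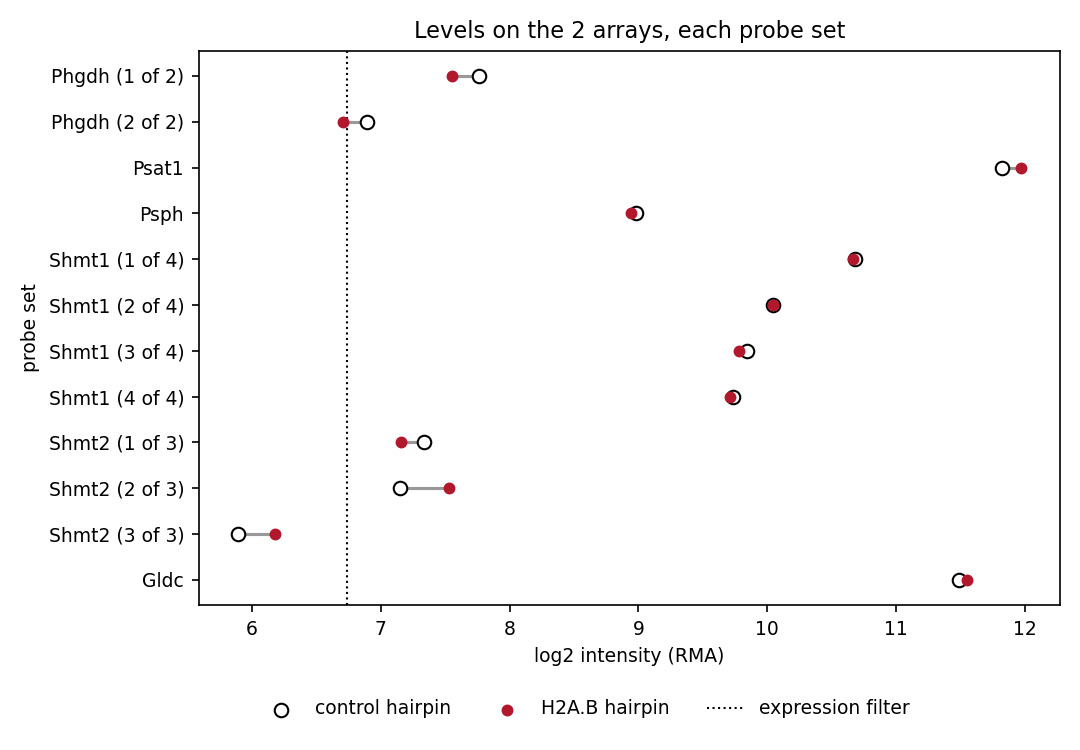
Log2 intensity (horizontal axis) of each of the 12 probe sets (vertical axis) on the control array (open circles) and the knockdown array (filled circles), with the expression filter as a dotted line. The Shmt1 circles nearly coincide on all 4 probe sets, the Phgdh circles are shifted to the left on both, and Shmt2 is shifted to the left on 1 probe set and to the right on the others; levels of different probe sets are not comparable.

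Shmt1, the cytosolic hydroxymethyltransferase, was at the same level on both arrays to within 0.058 on each of its 4 probe sets. Its probe sets had 10.68, 10.05, 9.84 and 9.73 in control cells and 10.66, 10.04, 9.78 and 9.71 in knockdown cells, in the same order. The differences were -0.015, -0.0075, -0.058 and -0.018, so that all 4 were lower on the knockdown array by at most 1.04-fold. Their SD was 0.023, below the median SD of 0.052 among the probe sets of 1 gene over 2556 genes with at least 2 probe sets past the filter. Those genes span all sections. Over the 700 of them with such probe sets in the first section only, as for Shmt1, the median SD was 0.035. Of probe sets past the filter in the first section, 41.0% differed by at least as much as the largest of the 4. Of the 4, 3 were designed from 1 transcript record and the fourth from another.

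Shmt2, the mitochondrial hydroxymethyltransferase, gave no single direction. Its probe set in the first section, whose name carries no suffix, had 7.33 in control cells and 7.16 in knockdown cells, a difference of -0.17. Its probe set in the last section had 7.15 and 7.53, a difference of 0.38. Its probe set in the middle section had 5.89 and 6.18, a difference of 0.29 at a level below the filter. The 2 probe sets that were higher on the knockdown array both carry the suffix x, which marks probes that may also bind unrelated transcripts. All 3 were designed from different transcript records.

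The Shmt2 probe sets were further apart than is usual for this table. The SD of the 2 past the filter was 0.39. Of the 700 genes with at least 2 probe sets past the filter, all in the first section, 0.429% had an SD at least as large, and the median SD was 0.035. Of the 1322 genes with probe sets past the filter in the first and a later section, as for Shmt2, 8.09% did, and the median SD was 0.057. Within the sections taken singly, 10.6% of probe sets past the filter in the first differed by at least as much as its Shmt2 probe set, and 19.4% in the last. The section, the suffix and the transcript record cannot be told apart for this gene, because the probe set without a suffix is also the one in the first section.

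Gldc, the glycine decarboxylase of the glycine cleavage system, had 11.49 in control cells and 11.55 in knockdown cells on its single probe set. The difference of 0.056, or 1.04-fold, was reached by 42.6% of probe sets past the filter in the first section. Of 6 other listed genes of threonine and glycine breakdown only 2 were measured, so the level of the rest is not known. Gcat, which follows Tdh in threonine breakdown and releases glycine, was the one past the filter, at 10.34 and 10.36. Its dimmer probe set had 5.48 and 5.51. Gnmt, a glycine methyltransferase gene, was below the filter at 6.08 and 6.01. Both probe sets of Gcat were therefore within 0.031 between the arrays.

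**Figure D2:**
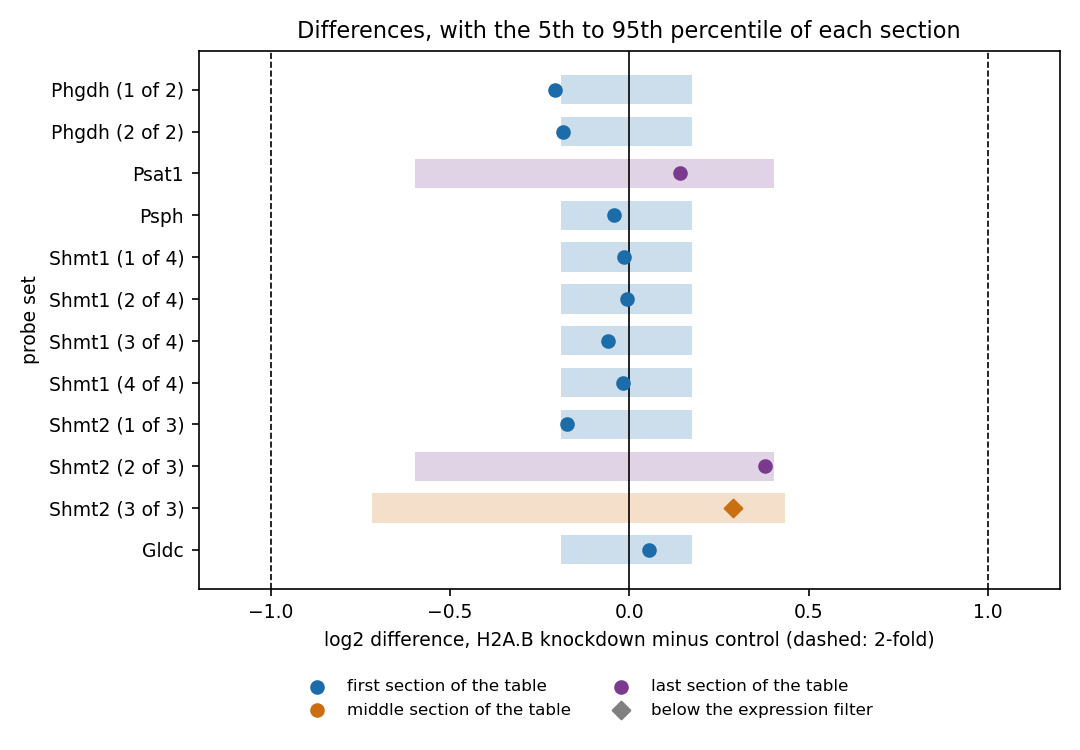
Log2 difference, knockdown minus control (horizontal axis), of each of the 12 probe sets, coloured by section of the table; bars span the 5th to the 95th percentile of differences of all probe sets past the filter in that section, and dashed lines mark 2-fold. The larger differences of Psat1 and Shmt2 lie inside the wide bars of the middle and last sections, 1 Phgdh probe set lies just below the narrow bar of the first section at -0.21, and 0 points reach a dashed line.

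The rest of the pathway was read from 76 other genes in 7 lists, of which 59 were measured and 44 passed the filter. On the knockdown array 1 of the 44 was at least 2-fold higher, beside 0.676% of all genes past the filter, and 0 were at least 2-fold lower, beside 1.28%. The median difference was -0.0094, with 21 genes above 0 and 23 below, and 30 of the 44 were within 0.1; over all genes past the filter 58.5% were.

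The folate cycle, which carries the units that Shmt1 and Shmt2 release, had 8 of 19 listed genes past the filter, 2 above and 6 below 0, with a median of -0.027. Mthfd1, the cytosolic trifunctional enzyme, had 11.69 in control cells and 11.68 in knockdown cells, and a difference of 0.031 on its other probe set. Tyms, the thymidylate synthase, had 9.78 and 9.75; its other 4 probe sets, all below the filter, had differences of -0.21, 0.22, 0.14 and 0.17. Mthfd1l, the mitochondrial formyltetrahydrofolate synthetase, had 10.24 and 9.89, a difference of -0.35 on a single probe set of the last section. Past the filter, then, Mthfd1 and Tyms, both read from the first section, were within 0.031 between the arrays. Mthfd1l was lower, but inside the 5th to 95th percentile of differences in the last section, -0.60 to 0.40.

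Purine synthesis, which consumes formylfolate, had 6 of 8 listed genes past the filter, 3 above and 3 below 0, with a median of -0.013. Paics had 12.96 in control cells and 12.97 in knockdown cells, and Gart, which uses formylfolate directly, had 11.43 and 11.49. Pfas, read from the last section, had 9.84 in knockdown cells, a difference of -0.16. The differences of all 6 lay between -0.16 and 0.055.

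The methionine cycle and transsulfuration list had 9 of 12 genes past the filter, 4 above and 5 below 0, with a median of -0.021. Ahcy, which clears S-adenosylhomocysteine after methyl transfer, had 12.71 in control cells and 12.74 in knockdown cells. Mat2b, the regulatory partner of Mat2a, had 9.86 and 10.03, a difference of 0.17 on a single probe set of the middle section. Ahcyl1, a relative of Ahcy, had 10.07 and 10.19 on one probe set, a difference of 0.12, and differences of 0.032 and -0.10 on its others. Mat2a and Amd1 themselves were not analysed here, so these partners do not stand in for them.

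The polyamine and methionine salvage list, the branch that Amd1 feeds, had 10 of 15 genes past the filter, 4 above and 6 below 0, with a median of -0.026. The spermidine synthase gene Srm had 12.07 in control cells and 12.13 in knockdown cells, and the spermine synthase gene Sms had 11.18 and 11.20. Oaz2, which encodes an antizyme that restrains polyamine synthesis, had 6.09 and 7.58, a difference of 1.49 or 2.81-fold. This was the single pathway gene past 2-fold; it had 1 probe set, in the middle section, and its control value lay below the filter. In the first section alone 0 of 31 pathway genes reached 2-fold. Over all sections, a stricter filter (75th percentile) left 29 pathway genes, of which 0 did. Azin1, which encodes an inhibitor of antizymes, had 10.57 and 10.97, a difference of 0.39 in the first section, but 9.99 and 9.94 on its probe set in the last section, a difference of -0.056. The 0.39 of Azin1 lies above 0.17, the 95th percentile of differences in the first section, and was not tested.

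Amino acid transporters had 6 of 8 genes past the filter, 5 above and 1 below 0, with a median of 0.058. The gene below 0, named after its values were seen, was Slc38a1, a carrier of small neutral amino acids, with 10.18 in control cells and 9.76 in knockdown cells. Its difference of -0.42, in the last section, was the lowest of the 44 pathway genes past the filter, and the other 5 transporters lay between 0.049 and 0.18. The -0.42 of Slc38a1 lies inside the 5th to 95th percentile of differences in that section, -0.60 to 0.40. Slc38a2, a related carrier, had 11.66 in control cells and 11.72 in knockdown cells. The heavy chain gene Slc3a2 had 11.32 and 11.36, and its partner Slc7a5, a carrier of large neutral amino acids, had 10.21 and 10.39, a difference of 0.18. That of Slc7a5, in the first section, lies just above the 95th percentile of differences there, 0.17. The list of serine breakdown, serine carriers and Atf factors had 4 of 8 genes past the filter and a median of 0.00090. In it Atf4, a transcription factor of the amino acid response, had 10.35 and 10.50, a difference of 0.15 in the middle section. Its brighter probe set was left out because its control value repeats one above it. Atf5 had 14.19 and 14.18, and Serinc1, named for a role in serine incorporation into lipids, had 9.50 and 9.39, with lower values on the knockdown array on its other 3 probe sets too (-0.22 on one past the filter, and -0.40 and -0.14 on others below it).

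**Figure D3:**
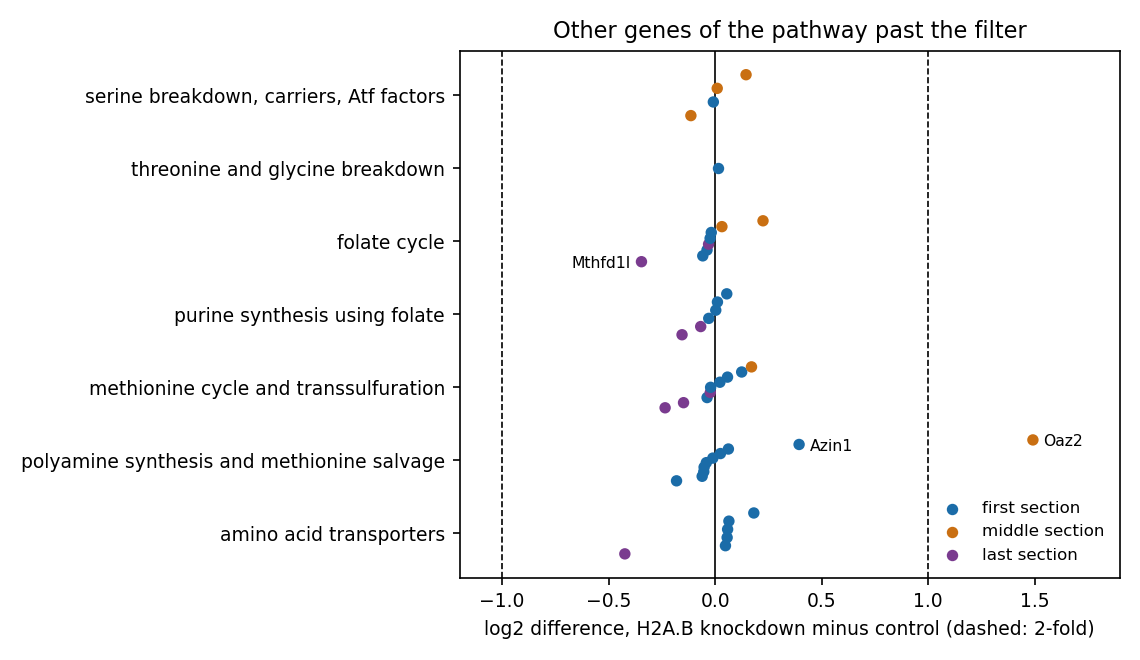
Log2 difference, knockdown minus control (horizontal axis), of the 44 other pathway genes past the filter by list (vertical axis; vertical shifts within a list only separate points), coloured by the section of the table that holds the probe set, with dashed lines at 2-fold. Oaz2 at 1.49 is the single point past a dashed line, and Azin1 at 0.39, Mthfd1l at -0.35 and the unlabelled transporter gene Slc38a1 at -0.42 stand off the rest of their lists. Mthfd1l and Slc38a1 lie inside the 5th to 95th percentile of the last section, -0.60 to 0.40. Azin1 lies above the 95th percentile of the first section, 0.17. It had -0.056 on its probe set in the last section, which is not drawn.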

How the data were processed

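Expression was measured on 2 arrays, 1 per group. Per the submitters' processing notes the values were made with RMA, which corrects background, normalises quantiles between arrays and summarises probes; the version and the scale are not given in the sources used here, and the deposited values were used as log2 intensities. The knockdown column as deposited (unit other) also holds 618 values that are no log2 intensities, 616 of them in a series rising by 1; these, and 1455 control values identical to a value up to 20 rows above, were left out. The platform annotation supplied the gene of each probe set, used only where it gives 1 gene. Each gene took its probe set of highest mean intensity, and genes at or above the median of these means passed the filter. Differences are knockdown minus control, with a rule of 2-fold (Python 3.11.15, pandas 2.3.3, statsmodels 0.14.6). The procedure was run on simulated data with planted steps, repeats and changes. The planted changes were all larger than 2-fold and the noise was equal on every row, unlike the sections here. The simulation therefore cannot show how well small differences are read. The members and lists were chosen with earlier results of these data known. Named are all members, the 3 genes of highest mean in each list, every list gene past the filter and 2-fold, and Actb and Gapdh. Pax6, Tbx6, Slc38a1 and Fpgs were named after their values were seen. Alternatives were the median over probe sets, probe sets without a suffix, centring by the median or by lowess, no filter or a stricter one (75th percentile), a rule of 1.5-fold, repeats kept or both members left out, single sections, and no member of largest difference.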

Additional observations from a re-analysis of the deposited data

How the results depend on the processing

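The count of 0 members at 2-fold was the same under all 10 alternatives. The median over members was -0.041 in the first section alone (5 genes) and 0.26 in the last (2 genes); the middle section alone gave none, since its Shmt2 probe set is below the filter. The count of other pathway genes at 2-fold was 2 without a filter, where the dim folate gene Fpgs (-1.28) was lower, and 0 when the 75th percentile was the filter or, chosen after seeing the data, in the first section alone. Of the members, 5 kept their sign under each alternative that gave a value; Shmt2 had 0.29 with the median over probe sets and -0.17 with probe sets without a suffix. Phgdh and Psat1 have only probe sets with a suffix, and Phgdh and Shmt2 fall below the 75th percentile. No paired analysis was possible because each group has 1 array, and no array could be left out. Signal over background was not analysed.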
